A study of Mus musculus with 6 samples.

Results

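The lysosome and autophagy genes described here are 44 mouse genes that were listed by name: 6 proteins of the lysosomal membrane, 8 proteases, 10 enzymes that break down sugar chains, 6 proteins of lipid handling and their cofactors, 4 subunits of the proton pump, 2 transcription factors and 8 genes of the autophagy machinery. All 44 are among the 34745 genes of the count tables, and 43 had more than 500 counts over the 6 libraries and were tested among 10046 genes. Idua was the only one below that limit. The limit was passed narrowly by Ctsc with 527 counts and Cd68 with 606 counts, most of them in 1 of the 2 groups, while Idua had 317 counts. A gene that passes mainly through the group in which it is high had to differ, so the shares of tested genes given below are descriptions.

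RNA was sequenced from 889 cells, a murine lung cancer cell line with the strain label C57BL/6 and the tissue label lung, to find genes that respond to the depletion of kiaa1522. The 3 sg-con libraries came from cells that expressed Cas9 with a control sgRNA, and the 3 sg-kiaa1522 libraries from cells that expressed Cas9 with an sgRNA against kiaa1522. Both groups therefore carried Cas9 and a guide, and they differed in the target of the guide. The labels do not say which kiaa1522 sgRNA the sequenced cells carried, whether they were a pool or a clone, or whether replicates were separate cultures, so p-values measure only the spread between these libraries.

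The libraries held between 12220001 and 18609376 counts. The targeted gene, listed as C77080, had 127, 130 and 124 CPM (counts relative to the library total, scaled by TMM) in the sg-con libraries and 210, 203 and 216 CPM in the sg-kiaa1522 libraries. Its mRNA was therefore higher where the label says that the gene was edited (log2 fold change 0.73, adjusted p = 9.1e-05 by the quasi-likelihood test of edgeR, with Benjamini-Hochberg adjustment across the tested genes), and directions below belong to libraries labelled sg-kiaa1522. Of 8 epithelial markers, Krt18, Krt8, Krt19 and Cdh1 were measured at levels that allowed a test, whereas Epcam had no count and Cldn4, Cldn7 and Krt7 had at most 7 counts in all libraries together. Keratins of simple epithelia were thus abundant, with mean levels in sg-con of 2120 CPM for Krt18, 1280 CPM for Krt8 and 798 CPM for Krt19, while several other defining epithelial markers were at or near 0. The 4 tested markers were all lower in sg-kiaa1522, where 26.3% of all 10046 genes tested were lower, with log2 fold changes of -0.19 for Krt18, -0.40 for Krt8, -0.73 for Krt19 and -1.45 for Cdh1, an adhesion protein of epithelial cells (adjusted p = 0.050, 0.0046, 0.0012 and 5.1e-05 by the same test). Krt18 overlapped between the groups, and 3 of the 4 passed without the second or the third sg-con library or any 1 of the sg-kiaa1522 libraries. In these settings between 2083 and 2387 of all genes were lower, against 2639 with all libraries. The part of these markers in the changes described below was not tested.

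Lysosomes are acidic organelles in which hydrolases degrade proteins, sugar chains and lipids that arrive by endocytosis or by autophagy. A vacuolar proton pump (V-ATPase) acidifies them, heavily glycosylated membrane proteins line them, and autophagosomes deliver cytoplasm to them for breakdown. The transcription factors TFEB and TFE3 can switch on many of these genes together through E-box type sites, and mTORC1 signaling holds both factors in the cytoplasm when nutrients are plentiful. In lung tumor cells as in other cells, lysosomal proteases and autophagy take part in recycling of nutrients and in the response to stress.

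Promoter sequences are shown first, because E-box type sites in promoters are the feature by which TFEB and TFE3 are known to act on such genes. RefSeq windows on GRCm38.p6 from 250 bases before to 50 bases after a gene's start were searched on both strands for CACGTG, the core of the sites that TFEB and TFE3 bind, and for its longer form TCACGTGA. Both motifs read the same on either strand, and every TCACGTGA contains a CACGTG. Of the 40 genes matched to a window, 13 held CACGTG (32.5%), against 2187 of 27025 genes (8.09%). The 27025 are all genes with a window, tested or not, so the sets are unlike, and the share among tested genes was not counted. The longer TCACGTGA was in 6 of the 40 (15%), namely Atp6v0d1, Atp6v1a, Ctsa, Ctsd, Gla and Mcoln1, against 304 of 27025 genes (1.12%). Atp6v1h, Becn1, Ctsb and Ctsh had no window.

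Promoter stretches of 3 genes that were higher in sg-kiaa1522 and hold the motif are given 5′ to 3′ on the strand of the gene, with the motif in capitals. They are those of Gla on the minus strand at chrX:134601174-134601252, of Ctsd on the minus strand at chr7:142387900-142387945, and of Ctsl on the minus strand at chr13:64370731-64370770.
Gla: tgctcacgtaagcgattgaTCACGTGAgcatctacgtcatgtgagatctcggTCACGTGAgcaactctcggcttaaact
Ctsd: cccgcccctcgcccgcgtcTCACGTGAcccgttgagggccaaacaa
Ctsl: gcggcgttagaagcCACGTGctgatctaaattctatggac

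Genes that did not pass the test held the motif as well. Stretches of 3 of these are given for comparison, from Lamp1 on the plus strand at chr8:13159080-13159160, Mcoln1 on the plus strand at chr8:3500428-3500499, and Ctsa on the plus strand at chr2:164833741-164833772. Lamp1 held 4 CACGTG sites and Mcoln1 held 2. Gla, Ctsd and Ctsa also held 2 each in their windows, of which the stretches of Ctsd and Ctsa show 1.
Lamp1: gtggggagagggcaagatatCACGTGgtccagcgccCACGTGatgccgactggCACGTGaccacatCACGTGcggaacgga
Mcoln1: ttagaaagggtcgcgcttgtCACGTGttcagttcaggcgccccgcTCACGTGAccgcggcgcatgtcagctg
Ctsa: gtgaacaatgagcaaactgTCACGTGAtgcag

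The 3 genes with the largest rises, Ctsc, Cd68 and Neu1, had neither motif in their windows. The 100 bases before their starts are shown, from Neu1 on the plus strand at chr17:34931153-34931252, Cd68 on the minus strand at chr11:69666171-69666270, and Ctsc on the plus strand at chr7:88277985-88278084.
Neu1: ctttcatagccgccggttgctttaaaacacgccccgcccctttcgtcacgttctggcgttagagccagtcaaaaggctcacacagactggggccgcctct
Cd68: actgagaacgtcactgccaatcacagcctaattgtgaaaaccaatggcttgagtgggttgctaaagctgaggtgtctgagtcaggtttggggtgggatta
Ctsc: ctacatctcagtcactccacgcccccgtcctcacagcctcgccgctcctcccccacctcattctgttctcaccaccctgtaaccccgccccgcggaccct

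Read against the calls given below, CACGTG was present in 3 of 11 genes that were higher, in 0 of 6 matched genes that were lower and in 10 of 22 that did not pass the test. A match describes these letters in this window, and a window without one says nothing more about binding of either factor.

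The genes differed widely in level. Expressed per summed exon length (TPM, counts per base of exon scaled to the same sum in each library), the highest levels in sg-con were those of Psap (751 ± 22.8 TPM, SD, n = 3), Ctsd (591 ± 13.0), Sqstm1 (572 ± 40.1) and Ctsz (503 ± 39.6). By this length Ctsd and Sqstm1 did not differ beyond their spread. In this group 13 genes were above 100 TPM, and Cd68 (2.44 ± 0.123 TPM), Idua (2.03 ± 0.714) and Ctsc (0.120 ± 0.0816) stood at the end. By the same length, sg-kiaa1522 had Sqstm1 at 814 ± 53.1 TPM, Ctsd at 744 ± 46.1, Psap at 555 ± 31.6 and Ctsz at 344 ± 34.3. This order depended on the length used. With the mean transcript length in its place, Sqstm1 came first in both groups (820 and 1130 TPM) and Ctsd second (469 and 570 TPM), Psap had 408 and 291 TPM, and Ctsz, with 263 and 173 TPM, was no longer among the first 4.

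Some genes changed place between the groups. By exon length Neu1 moved from rank 25 to 13 of 44, Cd68 from 42 to 30 and Ctsh from 27 to 40, and by mean transcript length they moved from 34 to 19, from 43 to 38 and from 20 to 37. Levels within a group were stable, with a median coefficient of variation of 6.37% in sg-con and 6.29% in sg-kiaa1522 over the 43 tested genes, against 8.96% and 6.31% over all genes tested.

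**Figure D1:**
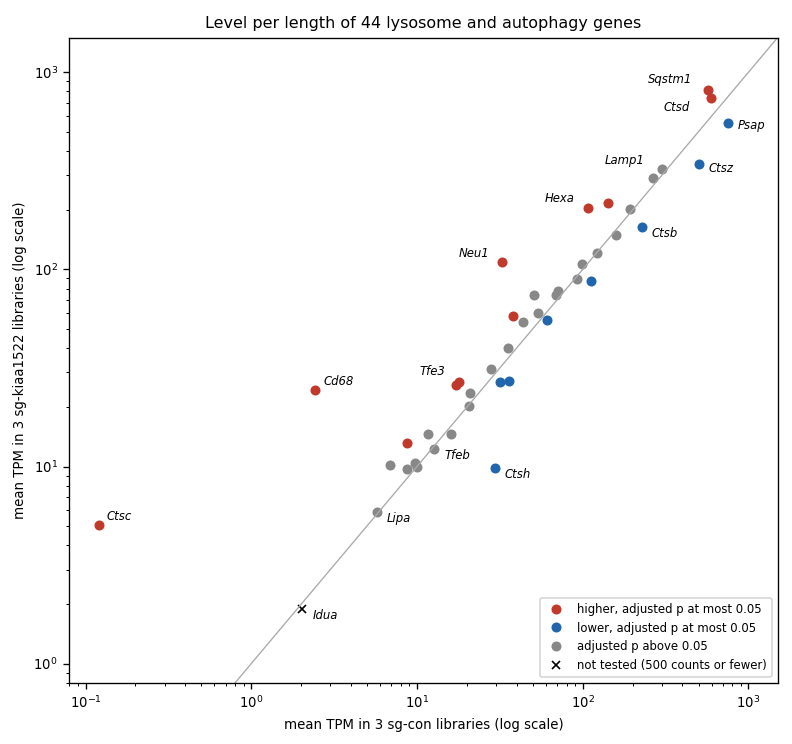
Mean TPM (counts per exon length, scaled to a common sum) of 44 genes in the 3 sg-con libraries (x axis) against the 3 sg-kiaa1522 libraries (y axis), both on log scales, with the line of equal level. Most genes lie near the line, Ctsc, Cd68 and Neu1 lie above it, and Ctsh lies below it.

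The comparison of the groups asked which of these genes differ between cells with the control guide and cells with the kiaa1522 guide. The genes did not move in 1 direction. In sg-kiaa1522 11 genes were higher (25.6% of 43) and 8 were lower (18.6%) at an adjusted p of at most 0.05, and 24 did not pass the test in the edgeR comparison. Of all 10046 genes, 26.3% were higher and 26.3% were lower, so that 52.5% passed in either direction against 44.2% of these genes. The median log2 fold change was 0.036, beside -0.0067 over all genes tested.

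When a log2 fold change beyond 1 or -1 was also required, Ctsc, Cd68 and Neu1 were higher and Ctsh was lower. Of all genes, 2.74% were higher and 4.34% were lower by that rule. The groups did not overlap in 15 genes that were higher and 11 that were lower in every sg-kiaa1522 library, where 30.6% and 31.1% of all genes did the same, and they overlapped in 17. The changes were also moderate in size, with a median of 0.22 in log2 units regardless of direction, against 0.32 over all genes tested, and 11 genes (25.6%) moved by more than 0.5, against 30.2% of all genes.

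The summed level of all 44 genes was 6450, 6740 and 6700 CPM in sg-con and 7070, 6640 and 6640 CPM in sg-kiaa1522. These sums overlap between the groups, and the genes made up from 0.643% to 0.702% of each library.

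**Figure D2:**
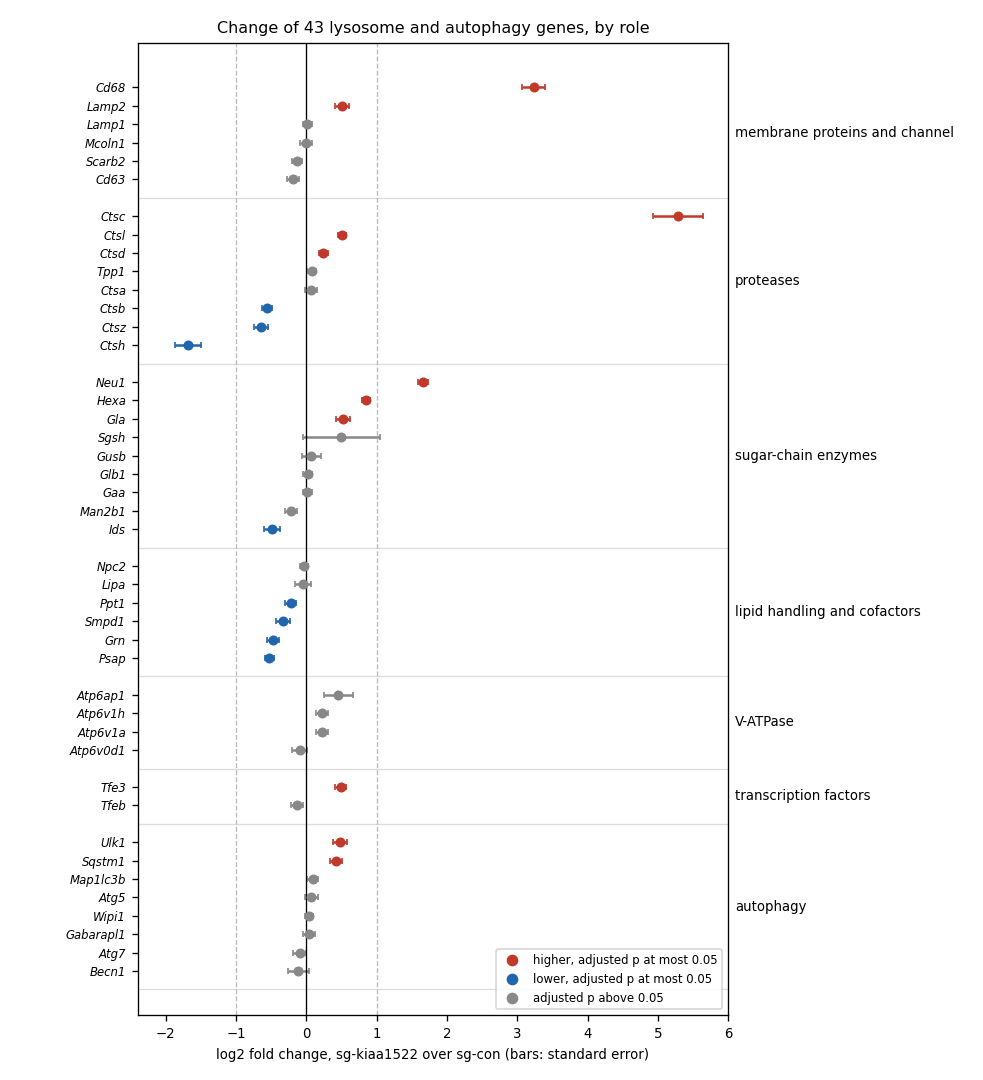
Log2 fold change (x axis, sg-kiaa1522 over sg-con) of the 43 tested genes, grouped by role, with bars of 1 standard error and dashed lines at -1 and 1. Red points are higher and blue points lower at an adjusted p of at most 0.05, and Ctsc, Cd68 and Neu1 lie beyond 1 while Ctsh lies beyond -1.

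Among the 6 membrane proteins, Cd68 and Lamp2 rose (33.3%, close to the 26.3% of all genes) and the other 4 did not pass the test. None was lower (edgeR, 0 also at an unadjusted p under 0.05 and 0 by DESeq2). Cd68 encodes a heavily glycosylated protein of late endosomes and lysosomes that is abundant in macrophages (ENSMUSG00000018774, chromosome 11 of GRCm38, from 69664213 to 69666153). It had 1.21, 1.24 and 1.14 CPM in the sg-con libraries and 10.1, 12.8 and 11.0 CPM in the sg-kiaa1522 libraries. Every sg-kiaa1522 library was far above every sg-con library, and the sg-con libraries were close to one another. The log2 fold change was 3.23 (standard error 0.165, edgeR adjusted p = 2.0e-05). From 63 counts in sg-con and 543 in sg-kiaa1522 the ratio was 9.56, with a 95% interval from 7.36 to 12.6 that covers counting error only.

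Since Cd68 is also used as a marker of macrophages, 15 other macrophage markers were examined. Their summed level was 72.2, 65.7 and 63.8 CPM in sg-con and 85.8, 104 and 99.7 CPM in sg-kiaa1522. Nearly all of it came from Mrc1, a mannose receptor, and Cd14, a coreceptor for bacterial lipopolysaccharide. Mrc1 rose from 44.8 ± 4.73 to 60.0 ± 7.62 CPM (edgeR adjusted p = 0.021), and Cd14 rose from 17.7 ± 1.68 to 33.4 ± 2.50 CPM (adjusted p = 4.3e-04 by the same test). Without the second or the third library of either group, 1 of these 2 markers passed. Of all genes, between 2062 and 2260 were higher in these settings, against 2638 with all libraries.

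Without Cd14 and Mrc1, the markers summed to 6.71, 2.75 and 4.80 CPM in sg-con and to 3.54, 2.73 and 2.89 CPM in sg-kiaa1522, and these values overlap. Lyz2, or lysozyme, the most abundant of them, was too low to test and had 3.62, 0.971 and 2.22 CPM in sg-con and 0.906, 0.927 and 0.942 CPM in sg-kiaa1522, without overlap. Adgre1 and Marco had no count in any library, Csf1r had 6 counts and Ptprc 26 counts in all libraries together, and 9 of the 16 listed genes, Itgam being listed under 2 identifiers, exceeded 3 counts in some library. In RNA from bulk cells, fewer cells of a type and less RNA per cell cannot be told apart.

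Lamp2, a lysosome-associated membrane protein needed for the fusion of autophagosomes with lysosomes, had 160, 138 and 128 CPM in sg-con and 186, 211 and 208 CPM in sg-kiaa1522 (ENSMUSG00000016534, chromosome X, from 38401357 to 38456454). The groups did not overlap, and its log2 fold change was 0.51 (standard error 0.0957, edgeR adjusted p = 0.0035). Its relative Lamp1, the most abundant membrane protein of the list, had 312 ± 17.8 and 315 ± 11.1 CPM (log2 fold change 0.01, adjusted p = 0.90 by the same test). Mcoln1, a calcium channel of the lysosomal membrane, had a log2 fold change of -0.0056. Scarb2, the receptor that carries glucocerebrosidase to lysosomes, and Cd63, a tetraspanin of late endosomes, had log2 fold changes of -0.13 and -0.19 (adjusted p = 0.14 and 0.093 by the same test). Without the first sg-con library Cd63 was called lower (log2 fold change -0.26, edgeR adjusted p = 0.014). With all libraries and the median of chromosome 10 (-0.19) subtracted, its log2 fold change was 0.0036.

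The 8 proteases moved in both directions: Ctsc, Ctsl and Ctsd rose, Ctsb, Ctsz and Ctsh fell, and 2 did not pass the test, so that 37.5% were called in each direction beside 26.3% of all genes. Ctsc (ENSMUSG00000030560, chromosome 7, from 88278085 to 88310888) encodes cathepsin C, a dipeptidyl peptidase that activates granule serine proteases. It was close to undetected in sg-con, with 0.459, 0.108 and 0.240 CPM from 8, 2 and 4 counts, where 3 counts correspond to between 0.162 and 0.180 CPM. In sg-kiaa1522 it had 9.15, 9.55 and 13.4 CPM from 111, 175 and 227 counts, so that all 3 libraries were above all sg-con libraries.

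The fitted log2 fold change of Ctsc was 5.29 (standard error 0.356, edgeR adjusted p = 5.5e-05). The ratio from the counts was 40.6, with a 95% interval from 24.0 to 74.9 that covers counting error only. Its size rested on few sg-con counts: the log2 fold change was 5.90 without the first sg-con library and 4.90 without the second. Even so, its level in sg-kiaa1522 was 5.05 ± 1.18 TPM by exon length, rank 43 of 44, so the largest ratio belonged to one of the least abundant genes.

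Ctsh encodes cathepsin H, an aminopeptidase that in alveolar type II cells takes part in the processing of surfactant proteins (ENSMUSG00000032359, chromosome 9, from 90054152 to 90076089). It had 41.2, 52.2 and 62.4 CPM in sg-con and 15.0, 13.9 and 19.6 CPM in sg-kiaa1522. The highest sg-kiaa1522 library was below the lowest sg-con library, although the sg-con libraries were spread widely. Its log2 fold change was -1.68 (standard error 0.187, edgeR adjusted p = 3.4e-04). The summed level of 6 lung epithelial markers, surfactant genes among them, was 97.3, 87.0 and 44.1 CPM in sg-con and 25.8, 25.0 and 61.2 CPM in sg-kiaa1522. These sums overlap between the groups, and Nkx2-1, a transcription factor of lung epithelium, varied within both, with 55.7, 59.1 and 13.6 CPM in sg-con and 10.9, 9.49 and 39.5 CPM in sg-kiaa1522. Sftpb, or surfactant protein B, fell from 21.6 ± 4.03 to 13.6 ± 1.79 CPM without overlap (adjusted p = 0.012 by the same test). Napsa, an aspartic protease that processes surfactant proteins, was too low to test, with 1.09, 0.971 and 1.26 CPM in sg-con and 0.0824, 0.273 and 0.177 CPM in sg-kiaa1522, and did not overlap either. The part of these markers in the change of Ctsh was not tested.

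Ctsz, or cathepsin Z, is a carboxypeptidase (ENSMUSG00000016256, chromosome 2, from 174427493 to 174439039). It had 251, 300 and 299 CPM in sg-con and 203, 173 and 168 CPM in sg-kiaa1522 (log2 fold change -0.65, standard error 0.102, edgeR adjusted p = 0.0016). Each sg-kiaa1522 library was below each sg-con library.

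Ctsb, or cathepsin B, is a cysteine protease that cuts within proteins and also trims their ends (ENSMUSG00000021939, chromosome 14, from 63122462 to 63145923). It had 507, 557 and 551 CPM in sg-con and 394, 363 and 340 CPM in sg-kiaa1522. The log2 fold change was -0.56 (standard error 0.0731, edgeR adjusted p = 6.8e-04), without overlap of the groups. The 343 tested genes of chromosome 14 had a median log2 fold change of -0.38, and that of Ctsb was -0.18 with this median subtracted. Ctsb also shares 12.8% of its exon length with Fdft1, a protein-coding gene on the opposite strand (log2 fold change -0.95, adjusted p = 1.4e-04 by the same test). The part of neither the chromosome nor Fdft1 in the change of Ctsb was tested.

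Ctsl, or cathepsin L, a cysteine endopeptidase, lies on chromosome 13 from 64359337 to 64370890 (ENSMUSG00000021477). It had 372, 357 and 353 CPM in sg-con and 524, 497 and 514 CPM in sg-kiaa1522, a rise in every library. Its log2 fold change was 0.50 (standard error 0.0546, edgeR adjusted p = 3.0e-04). The annotation places the antisense gene Gm47123 over 26.9% of its exon length and the pseudogene Gm49230 on the same strand over 6.09%, so its count is uncertain by the reads these may share.

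Ctsd, or cathepsin D, the main aspartic protease of lysosomes, had 541 ± 15.2 CPM in sg-con and 639 ± 40.2 CPM in sg-kiaa1522 (log2 fold change 0.24, edgeR adjusted p = 0.015). Without the first sg-kiaa1522 library the edgeR adjusted p was 0.051. It shares 34.4% of its exon length with Gm49369 on the same strand. Tpp1, a tripeptidyl peptidase, and Ctsa, a carboxypeptidase that protects Neu1 and beta-galactosidase in a complex, had log2 fold changes of 0.08 and 0.07 (adjusted p = 0.34 and 0.53 by the same test).

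**Figure D3:**
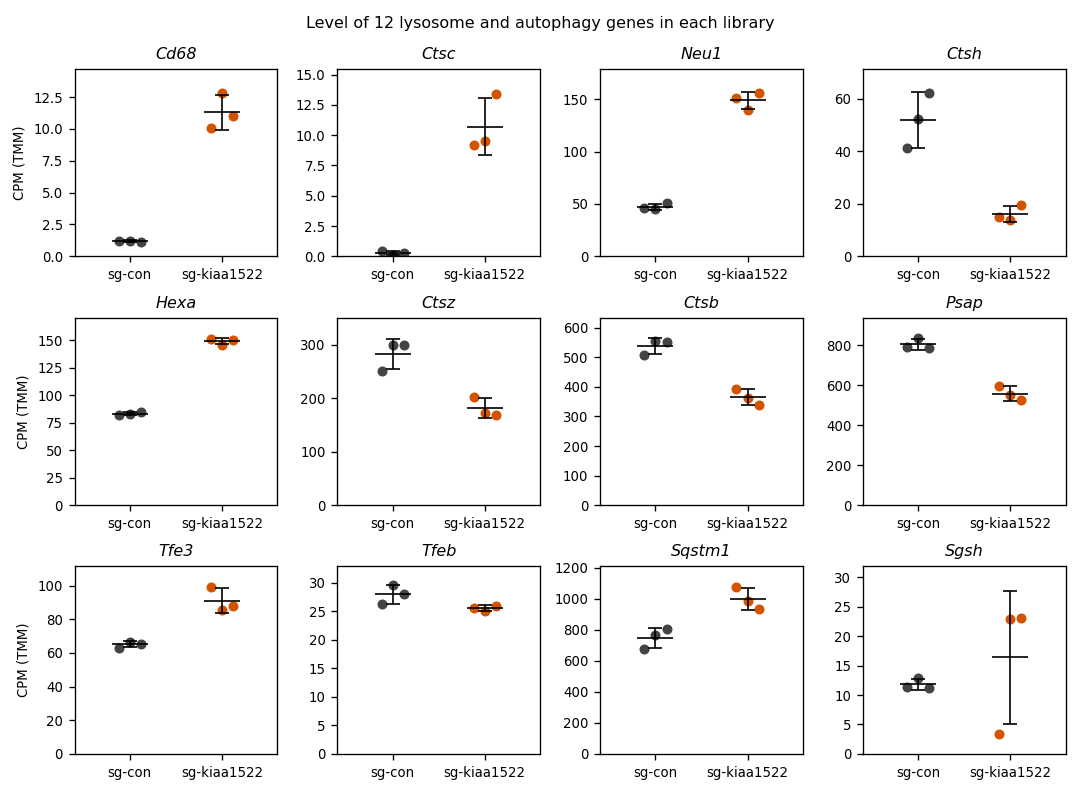
CPM (TMM-scaled, y axes from 0) of 12 genes in each of the 3 sg-con and 3 sg-kiaa1522 libraries, with the mean as a bar and 1 SD as whiskers. The groups are apart in 11 genes, and in Sgsh 1 sg-kiaa1522 library lies below all sg-con libraries while the other two lie above them.

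Of the 9 tested enzymes of sugar chains, Neu1, Hexa and Gla rose (33.3%), Ids fell (11.1%) and 5 did not pass the test, while 26.3% of all genes were called each way. Neu1 encodes the lysosomal sialidase that removes terminal sialic acid from glycoproteins and glycolipids (ENSMUSG00000007038, chromosome 17, from 34931253 to 34935953). It had 46.4, 44.8 and 50.6 CPM in sg-con and 151, 140 and 156 CPM in sg-kiaa1522. All sg-kiaa1522 libraries were well above all sg-con libraries, with little spread in either group. Its log2 fold change was 1.66 (standard error 0.0768, edgeR adjusted p = 1.5e-05), a ratio of 3.16.

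Hexa, the alpha subunit of beta-hexosaminidase that acts on GM2 ganglioside, had 82.0, 82.8 and 84.8 CPM in sg-con and 151, 146 and 150 CPM in sg-kiaa1522 (ENSMUSG00000025232, chromosome 9, from 59539540 to 59565109). Its log2 fold change was 0.84 (standard error 0.0561, edgeR adjusted p = 5.3e-05), and the groups did not overlap. Gla, the alpha-galactosidase that acts on globotriaosylceramide, lies on chromosome X from 134588149 to 134601125 (ENSMUSG00000031266). It rose from 10.7, 11.4 and 11.0 CPM to 15.5, 16.5 and 15.3 CPM, again without overlap (log2 fold change 0.52, standard error 0.0962, adjusted p = 0.0033 by the same test).

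Ids, the sulfatase that removes sulfate from iduronate in heparan and dermatan sulfate, was the enzyme of this group that fell (ENSMUSG00000035847, chromosome X, from 70343069 to 70365084). It had 81.8, 68.4 and 62.1 CPM in sg-con and 49.4, 51.0 and 50.9 CPM in sg-kiaa1522. The sg-con libraries were spread but each lay above the sg-kiaa1522 libraries (log2 fold change -0.49, standard error 0.108, edgeR adjusted p = 0.0070).

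Idua, which removes iduronic acid from the same sugar chains, was not tested because of its low counts. It had 4.36, 3.40 and 2.16 CPM in sg-con and 2.39, 3.98 and 2.36 CPM in sg-kiaa1522, from between 29 and 76 counts a library, and these values overlap.

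Sgsh, the sulfamidase of heparan sulfate, is described by library although the rule for named genes does not select it, since its values were seen to differ within a group. It had 11.3, 12.9 and 11.2 CPM in sg-con and 3.38, 22.9 and 23.0 CPM in sg-kiaa1522. The first sg-kiaa1522 library was thus the lowest of all, and the other two were the highest. With all libraries the log2 fold change was 0.50 with a standard error of 0.550 (edgeR adjusted p = 0.47). Without the first sg-kiaa1522 library it was 0.96 (adjusted p = 0.0014 by the same test), so this library decides the call.

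Gaa, the acid alpha-glucosidase of glycogen, Glb1, the beta-galactosidase, and Gusb, the beta-glucuronidase, had log2 fold changes of 0.01, 0.02 and 0.07 and overlapped between groups. Man2b1, an alpha-mannosidase, had 50.3 ± 1.91 CPM in sg-con and 43.3 ± 3.85 CPM in sg-kiaa1522 without overlap, and a log2 fold change of -0.22 (edgeR adjusted p = 0.076).

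The 6 genes of lipid handling and cofactors had negative log2 fold changes throughout, with a median of -0.28. Psap, Grn, Smpd1 and Ppt1 fell, 4 of 6 genes where 26.3% of all genes tested fell, and 2 did not pass the test. None was higher (edgeR, 0 also at an unadjusted p under 0.05 and 0 by DESeq2). Psap encodes prosaposin, the precursor of the saposins that present sphingolipids to their hydrolases (ENSMUSG00000004207, chromosome 10, from 60277627 to 60302597). It had 788, 836 and 786 CPM in sg-con and 595, 552 and 524 CPM in sg-kiaa1522, and the groups lay far apart. The log2 fold change was -0.53 (standard error 0.0655, edgeR adjusted p = 5.5e-04), and -0.34 with the median of the tested genes of chromosome 10, which was -0.19, subtracted.

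Grn, or progranulin, is a secreted and lysosomal glycoprotein that binds prosaposin. It had 154 ± 10.6 CPM in sg-con and 110 ± 9.10 CPM in sg-kiaa1522 without overlap (log2 fold change -0.48, standard error 0.0838, edgeR adjusted p = 0.0025). Smpd1, the acid sphingomyelinase, had a log2 fold change of -0.33, and Ppt1, the thioesterase that removes palmitate from proteins, had one of -0.23 (adjusted p = 0.029 and 0.034 by the same test). Of these 4 falls, 2 were called without the second sg-con, the second sg-kiaa1522 or the third sg-kiaa1522 library. Of all genes, 2138, 2120 and 2083 were lower in these settings, against 2639 with all libraries. Without the second sg-con library, for example, the edgeR adjusted p was 0.099 for Smpd1 and 0.081 for Ppt1. Npc2, which carries cholesterol out of the lysosomal lumen, had 412 ± 5.25 and 401 ± 13.6 CPM, and Lipa, the acid lipase, had 15.1 ± 1.55 and 14.6 ± 0.984 CPM. Neither passed the test. The log2 fold change of Lipa was -0.05, and -0.23 with the median of chromosome 19 (0.18) subtracted.

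None of the 4 listed V-ATPase genes passed the edgeR test, where 26.3% of all genes were higher and 26.3% lower. At an unadjusted p under 0.05, 2 were higher and 0 were lower (2923 and 2966 of all 10046 genes), and DESeq2 called 1 higher and 0 lower (2675 and 2612 of all genes). Atp6v1a, the catalytic A subunit, and Atp6v1h, a regulatory subunit, had log2 fold changes of 0.22 and 0.22 with standard errors of 0.0834 and 0.0874 (edgeR adjusted p = 0.060 and 0.063), and their groups did not overlap. Atp6ap1, an accessory subunit, had 59.6 ± 16.8 CPM in sg-con and 81.6 ± 15.0 CPM in sg-kiaa1522 (log2 fold change 0.45, edgeR adjusted p = 0.10). Atp6v0d1, of the membrane part of the pump, had a log2 fold change of -0.10. Leaving out 1 library moved Atp6ap1 in both directions, to a log2 fold change of 0.69 without the first sg-con library and 0.29 without the third library of either group. The log2 fold change of Atp6v1h was 0.43 with the median of the tested genes of chromosome 1, which was -0.21, subtracted. Without the first sg-con library, Atp6v1a, Atp6v1h and Atp6ap1 were called higher (adjusted p = 0.0032, 0.026 and 0.011 by the same test). In that setting 2970 of all genes were higher, more than the 2638 with all libraries.

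The 13 other V-ATPase subunits of a second list gave a fuller view of the pump. Of these, 8 rose (61.5%) and 1 fell (7.69%), where 26.3% of all genes tested rose and 26.3% fell, with a median log2 fold change of 0.35. Their summed level was 999, 1070 and 1100 CPM in sg-con and 1300, 1250 and 1270 CPM in sg-kiaa1522, so that the groups did not overlap. Atp6ap2, the prorenin receptor, rose from 61.4 ± 3.73 to 105 ± 8.53 CPM and Atp6v0a2 from 29.3 ± 5.84 to 50.7 ± 14.7 CPM (edgeR adjusted p = 3.0e-04 and 0.025), the latter with overlapping groups. Atp6v0e was the subunit that fell, from 113 ± 10.8 to 90.5 ± 3.96 CPM (adjusted p = 0.016 by the same test). It was not called without the second sg-con, the second sg-kiaa1522 or the third sg-kiaa1522 library, and 2 subunits were lower without the first sg-con library. In the last setting 2962 of all genes were lower, against 2639 with all libraries.

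The 2 transcription factors differed from each other. Tfe3 (ENSMUSG00000000134, chromosome X, from 7762560 to 7775202) had 63.2, 66.8 and 65.2 CPM in sg-con and 99.5, 85.8 and 88.1 CPM in sg-kiaa1522. It rose without overlap (log2 fold change 0.48, standard error 0.0772, edgeR adjusted p = 0.0017). Tfeb (ENSMUSG00000023990, chromosome 17, from 47737030 to 47792419) had 26.3, 29.6 and 28.1 CPM in sg-con and 25.6, 25.1 and 26.0 CPM in sg-kiaa1522. The groups did not overlap, but the log2 fold change of -0.13 did not pass the test (standard error 0.0844, adjusted p = 0.23 by the same test). The activity of both factors depends on where the protein resides, which mRNA levels do not measure.

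Their relatives and regulators were examined as a list of 28 names, of which 27 were in the tables and 23 were tested. Mitf had 73 counts in all and Tfec had none, so of this family Tfeb and Tfe3 were the members with enough counts to test. Of the 23 genes, 8 rose (34.8%) and 6 fell (26.1%), near the 26.3% of all genes in each direction, with a median log2 fold change of 0.07. Fnip1, which with folliculin acts on the Rag GTPases that recruit TFEB and TFE3 to lysosomes, rose from 57.4 ± 9.99 to 112 ± 11.9 CPM, and Sesn2, a leucine sensor upstream of mTORC1, from 31.1 ± 2.86 to 59.3 ± 2.51 CPM. Lamtor2, of the Ragulator complex that anchors mTORC1 on lysosomes, fell from 85.4 ± 7.02 to 48.9 ± 1.81 CPM, and Sesn1 from 24.9 ± 1.77 to 14.3 ± 0.188 CPM. The Rag GTPases Rragb and Rragd had 0 and 31 counts in all and were not tested.

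Of the 8 autophagy genes, Ulk1 and Sqstm1 rose (25.0%, at the level of the 26.3% over all genes) and 6 did not pass the test. None was lower (edgeR, 0 also at an unadjusted p under 0.05 and 0 by DESeq2). Ulk1, the kinase that starts autophagosome formation, had 46.5, 45.7 and 39.1 CPM in sg-con and 64.3, 57.1 and 61.9 CPM in sg-kiaa1522 (ENSMUSG00000029512, chromosome 5, from 110784488 to 110810097). The groups did not overlap (log2 fold change 0.48, standard error 0.0957, edgeR adjusted p = 0.0045).

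Sqstm1, or p62, the receptor that links ubiquitinated cargo to the autophagosome and is itself degraded with it, had 675, 765 and 806 CPM in sg-con and 1080, 984 and 935 CPM in sg-kiaa1522 (ENSMUSG00000015837, chromosome 11, from 50199366 to 50210827). All sg-kiaa1522 libraries were above all sg-con libraries, and the log2 fold change was 0.41 (standard error 0.0847, edgeR adjusted p = 0.0050). The protein-coding gene Mrnip, on the opposite strand, lies over 17.3% of its exon length.

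Map1lc3b and Gabarapl1, which encode ubiquitin-like proteins that coat autophagosomes, did not pass the test. Map1lc3b, which encodes LC3B, had 60.4, 62.4 and 60.6 CPM in sg-con and 70.2, 62.6 and 62.1 CPM in sg-kiaa1522 (log2 fold change 0.09, standard error 0.0765, edgeR adjusted p = 0.37). Gabarapl1, of the same family, had 210, 215 and 199 CPM in sg-con and 232, 191 and 216 CPM in sg-kiaa1522 (log2 fold change 0.04, standard error 0.0824, adjusted p = 0.74 by the same test). Both genes overlapped between the groups. Of their 3 relatives in the wider autophagy list, which are named here although the rule for named genes does not select them, Gabarap fell from 326, 375 and 366 CPM in sg-con to 321, 296 and 282 CPM in sg-kiaa1522 (log2 fold change -0.25, edgeR adjusted p = 0.031). Gabarapl2 and Map1lc3a did not pass the test and had log2 fold changes of opposite sign, -0.21 and 0.31 (edgeR adjusted p = 0.059 and 0.062), without overlap in either.

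Becn1, of the lipid kinase complex that marks the site of autophagosome formation, Atg5 and Atg7, which attach LC3 to lipid, and Wipi1, which binds the lipid made there, had log2 fold changes of -0.12, 0.07, -0.10 and 0.04. That of Atg5 was 0.26 with the median of chromosome 10 (-0.19) subtracted. The protein-coding gene Cntd1, on the opposite strand, lies over 43.9% of the exon length of Becn1 but had under 1 CPM in every library.

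A wider list of 44 autophagy genes, 43 of them tested, had 14 that rose (32.6%) and 7 that fell (16.3%), against 26.3% each way over all genes, with a median log2 fold change of 0.06. Atg2b, a lipid transfer protein of the growing autophagosome, rose from 49.1 ± 7.26 to 92.8 ± 4.38 CPM, and Tecpr1, which takes part in the fusion of autophagosomes with lysosomes, from 197 ± 13.7 to 362 ± 10.2 CPM. Atg10, the enzyme that conjugates Atg12 to Atg5, fell from 11.7 ± 0.786 to 3.63 ± 1.07 CPM, and Vamp8, a SNARE of that fusion, from 94.4 ± 31.9 to 51.0 ± 17.7 CPM. The count of falls was 4 without the second or the third sg-con library, where 2138 and 2338 of all genes fell. It was 2 without the second or the third sg-kiaa1522 library, where 2120 and 2083 fell, against 2639 with all libraries. The rises of this list numbered 12, 12, 13 and 13 in the same settings.

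A list of 50 other lysosomal genes, 44 of them tested, had 10 that rose (22.7%) and 18 that fell (40.9%), beside 26.3% in each direction over all genes. Their median log2 fold change was -0.14. Npc1, the cholesterol transporter that receives its cargo from Npc2, rose from 40.9 ± 3.87 to 78.2 ± 2.07 CPM, and Clcn7, a chloride and proton exchanger, from 49.5 ± 3.43 to 86.5 ± 5.14 CPM. Gm2a, the activator that presents GM2 ganglioside to beta-hexosaminidase, fell from 61.5 ± 2.60 to 20.1 ± 1.08 CPM, and Tpcn2, a cation channel, from 7.49 ± 1.58 to 3.25 ± 0.539 CPM. Hexa and Gm2a, which act on the same lipid, thus moved in opposite directions.

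**Figure D4:**
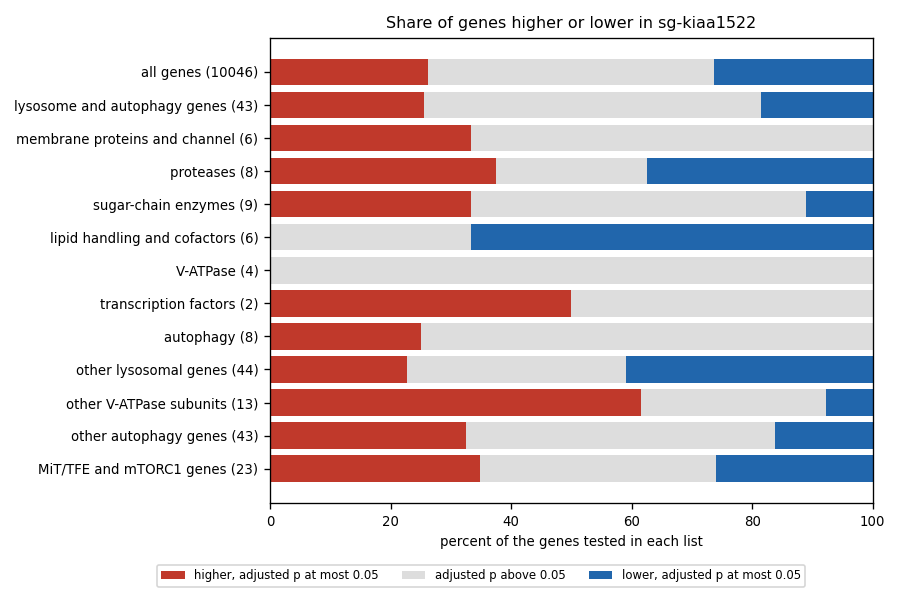
Percent of the tested genes (x axis) that were higher, not called or lower in sg-kiaa1522 at an adjusted p of at most 0.05, for all genes, the lysosome and autophagy genes, their roles and 4 further lists, with the number tested in parentheses. The 13 other V-ATPase subunits show 8 rises and 1 fall, and the 6 genes of lipid handling show 4 falls and no rise.

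Viewed by library, the genes past the test were mostly uniform within a group. The coefficient of variation was over 20% for Ctsc, Idua, Atp6ap1 and Ctsh in sg-con, and for Sgsh, Idua and Ctsc in sg-kiaa1522, where that of Sgsh was 68.8%. The first sg-kiaa1522 library, which had the fewest counts, stood apart in Sgsh. The first sg-con library had the highest level of its group in Ids, Lamp2 and Atp6ap1.

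**Figure D5:**
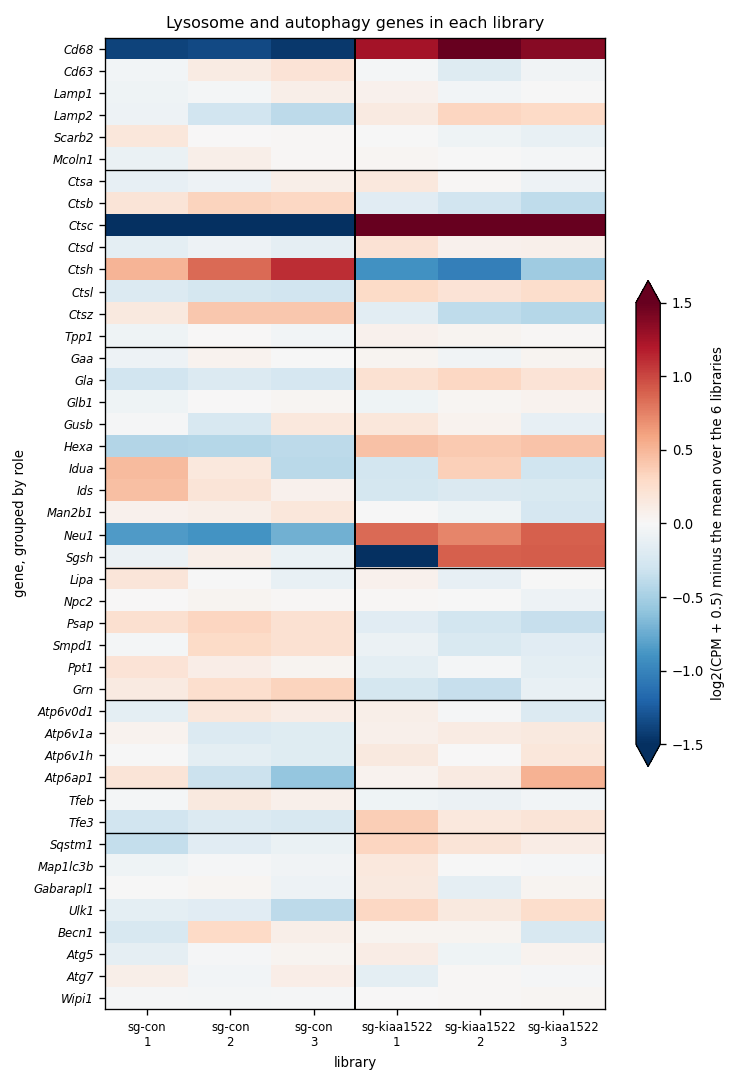
Log2(CPM + 0.5) of 44 genes (rows, grouped by role) in each of the 6 libraries (columns), as the difference from the mean of the gene over the libraries, with colors capped at -1.5 and 1.5. Cd68, Ctsc, Neu1 and Hexa are high and Ctsh is low in all 3 sg-kiaa1522 libraries, and Sgsh is low in 1 of them.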

How the data were processed

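The authors trimmed adaptors and removed rRNA reads with Seqtk, mapped the reads to GRCm38 with HISAT2 2.0.4 and counted uniquely mapped fragments with StringTie 1.3.0, and they deposited whole-number counts per gene without normalization for each library. The annotation release and whether counting used strand are not given in the sources used here, so reads of overlapping genes cannot be assigned with certainty, and 17 of the 44 genes share exon bases with another gene. The TMM-scaled FPKM values that the methods also describe were not used.

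Genes above 500 counts in total were scaled by TMM (factors from 0.989 to 1.01) and tested with edgeR 4.0.16 (quasi-likelihood test, Benjamini-Hochberg adjustment over 10046 genes) in R 4.3.3 with limma 3.58.1, without covariates. The biological coefficient of variation was 0.127, and 3 counts correspond to between 0.162 and 0.247 CPM. Counts of libraries of 1 group differed beyond sampling noise (chi-square over its degrees of freedom 12.3 or more), so none is the same library sequenced again. This comparison with sampling noise alone cannot tell separate cultures from repeat preparations of 1 culture. Exon lengths and positions came from GENCODE M21, and promoters from RefSeq, with 40 of the 44 genes matched by symbol. Of the names in the further lists, Rubcn and Castor1 were not found.

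Values in every library are given for genes past an adjusted p of 0.05 and a log2 fold change of 1 in size, for the 10 next largest changes without overlap, and for Tfeb, Tfe3, Map1lc3b, Gabarapl1, Sqstm1 and untested genes. From each further list, up to 2 of the largest rises and falls are named. The genes and lists were chosen with earlier results of these data known. The test was also run on simulated counts that gave every gene the same biological coefficient of variation. Genes in these libraries vary in spread, so no conclusion is drawn from that run. Alternatives were library size alone or RLE size factors, 2 other filters, DESeq2 1.42.0, the replicate number as a block, each library left out in turn, chromosome medians subtracted, an adjusted p of 0.01, mean transcript length for TPM, and the longer motif.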

Additional observations from a re-analysis of the deposited data

How the results depend on the processing

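Over 12 settings and 43 genes, chromosome medians aside, 497 of 516 values kept their side of the threshold, 13 lost the call, 6 gained it and 0 called values changed sign. Of 19 called genes, 16 kept the call under every setting run, and Ctsd, Smpd1 and Ppt1 did not. DESeq2 called 12 genes higher and 8 lower (2675 and 2612 of all genes), adding Atp6ap1 (adjusted p = 0.043), and an adjusted p of at most 0.01 left 10 and 6 (1731 and 1812 of all genes). The same replicate numbers in both groups did not pair the libraries (correlations of deviations -0.23, -0.053 and -0.17, and 0 of 6 libraries correlated best with their own number). With a replicate block, 10 genes were higher and 6 lower, and 2109 and 2111 of all genes, with Ctsd (0.24, adjusted p = 0.060), Smpd1 (-0.33, 0.081) and Ppt1 (-0.23, 0.091) no longer called.

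With single libraries left out, between 11 and 14 genes were higher and between 6 and 9 lower (2062 to 2970 and 2083 to 2962 of all genes), 3 remained higher and 1 lower past the fold threshold, and the median log2 fold change lay between 0.0027 and 0.0462. It was 0.0027 without the first sg-kiaa1522 library and 0.0036 with chromosome medians subtracted, so its size is not firm. The cause was not tested. The longer motif was in 6 promoters instead of 13. Since it contains the shorter one, its count could not be the larger. With mean transcript length in place of exon length, 14 genes were above 100 TPM in sg-con instead of 13, but single levels and the order moved: Psap went from 751 to 408 TPM, Ctsz from 503 to 263 and Sqstm1 from 572 to 820. Counts limit what can be said of Ctsc, which had 8, 2 and 4 in the sg-con libraries, and of Idua, which had between 29 and 76 in all 6.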
